A study of Homo sapiens with 2 samples.

Results

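The genes described here are the LATS kinases, the coactivators YAP and TAZ, the TEAD transcription factors and the CCN1 and CCN2 target genes, which together form the output arm of the Hippo pathway. All 10 were chosen by name, as LATS1, LATS2, YAP1, WWTR1, TEAD1, TEAD2, TEAD3, TEAD4, CCN1 (formerly CYR61) and CCN2 (formerly CTGF). Each was represented by 1 probe set that carried no other gene symbol, among 22465 genes on the array. The cells were IGROV1-R10, human ovarian carcinoma cells derived from the IGROV1 line and known for resistance to cisplatin. The control culture received a control miRNA duplex, and the other culture received a miR-491-5p duplex. In both, the duplex was added 24 h after seeding at a final 20 nM with the reagent INTERFERin, and 100 ng of total RNA was labelled for an Affymetrix whole-transcript array. Each group was 1 array of 1 cell line, with no replicate, so the differences below carry neither an error nor a p-value and compare 2 arrays, not 2 conditions. The time from transfection to RNA collection, the confluence of the cultures and the sequence of the control duplex are not stated in the labels used here.

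In the Hippo pathway, upstream kinases activate LATS1 and LATS2, which phosphorylate YAP (from YAP1) and TAZ (from WWTR1). The phosphorylated coactivators are retained in the cytoplasm or degraded. Unphosphorylated YAP and TAZ enter the nucleus, bind the TEAD factors and induce genes such as CCN1, CCN2 and LATS2 itself, the last as a negative feedback. In epithelial and carcinoma cells this pathway is known to respond to cell contact, shape and attachment. It acts largely through protein phosphorylation, which an RNA array does not measure.

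The transfected miRNA is shown because all differences compare its array with the control array. Its mature sequence was taken from RefSeq (GRCh38.p14, chr9:20716120-20716141, + strand), with the seed, bases 2 to 8, in capitals. It was the only mature name in the RefSeq table with this seed.

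hsa-miR-491-5p: aGUGGGGAacccuuccaugagg

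LATS2 was the member with the largest difference, and it was higher after miR-491-5p. CCN1 had the largest difference in the other direction. The remaining 8 members differed by at most 0.37 on the log2 scale in either direction. No member reached a 2-fold difference. In a bulk RNA sample, fewer cells with a transcript and less of it per cell cannot be told apart.

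Values are the deposited log2 signals. A difference is the miR-491-5p value less the control value, and a fold is 2 raised to the size of that difference. A gene passed the filter when at least 1 of its values was 5.55 or more, which is the median signal over all probe sets and both arrays. This left 14373 genes, of which 109 (0.758%) were lower by 2-fold or more and 7 (0.0487%) were higher by that much. At 1.5-fold, 521 (3.62%) were lower and 97 (0.675%) higher. After each difference was centred on the median of -0.07, these 1.5-fold counts were 385 and 148. Against this background, 0 of 10 members were 2-fold different, 1 was 1.5-fold higher and 1 was 1.5-fold lower. With so few members, 1 gene in each direction describes those genes and not the set.

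The LATS kinases, which inactivate YAP and TAZ, differed from each other. LATS2 read 10.44 on the miR-491-5p array and 9.72 on the control array. It was thus 1.65-fold higher, with a difference of 0.72 that ranked 49th from the highest of all genes above the filter, and 0.348% of those genes were at or above it. LATS1, its paralog, read 10.82 and 10.83 on the same arrays. Its difference of -0.01 was 0.06 after median centring, so it has no stable direction, and 64.8% of genes above the filter were at or below it. The difference of LATS2 exceeded that of LATS1 by 0.73. No replicate exists to set a spread for that gap.

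The transcripts of the coactivators were close to level. YAP1 read 11.12 after miR-491-5p and 10.98 after the control, a difference of 0.14 (1.10-fold higher). WWTR1, which encodes TAZ, read 8.09 and 8.32, a difference of -0.23 (1.17-fold lower). The pair therefore lay on opposite sides of the all-gene median of -0.07, separated by 0.37. Both were inside the range of -0.68 to 0.37 that held the middle 95% of genes above the filter.

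Of the 4 TEAD genes, which encode the DNA-binding partners of YAP and TAZ, TEAD4 and TEAD1 were lower and the other two were level. TEAD4 read 8.25 against 8.62 on the control array, 1.29-fold lower. TEAD1 read 12.00 against 12.31, 1.24-fold lower. TEAD2 read 9.75 on both arrays. TEAD3 read 6.22 against 6.27, and its difference of -0.05 turned to 0.02 after median centring. No TEAD gene was higher on the miR-491-5p array as deposited, and none reached 1.5-fold in either direction. Among all genes above the filter, 10.3% had a difference as low as that of TEAD4 or lower, and 14.1% as low as that of TEAD1 or lower.

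CCN1 and CCN2 encode secreted matricellular proteins and are commonly read as reporters of YAP and TAZ activity. CCN1 read 11.27 on the miR-491-5p array and 11.92 on the control array. It was 1.57-fold lower, ranked 386th from the lowest of all genes above the filter, and 2.78% of genes were at or below it. After median centring its difference of -0.65 became -0.58, and after a loess correction on signal -0.57, both short of 1.5-fold. CCN2 read 5.43 against 5.62, so it passed the filter through the control array alone. A gene that passes that way can only be lower, so the sign of its difference of -0.19 is not read. Whether CCN2 was measured above background is not known.

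**Figure D1:**
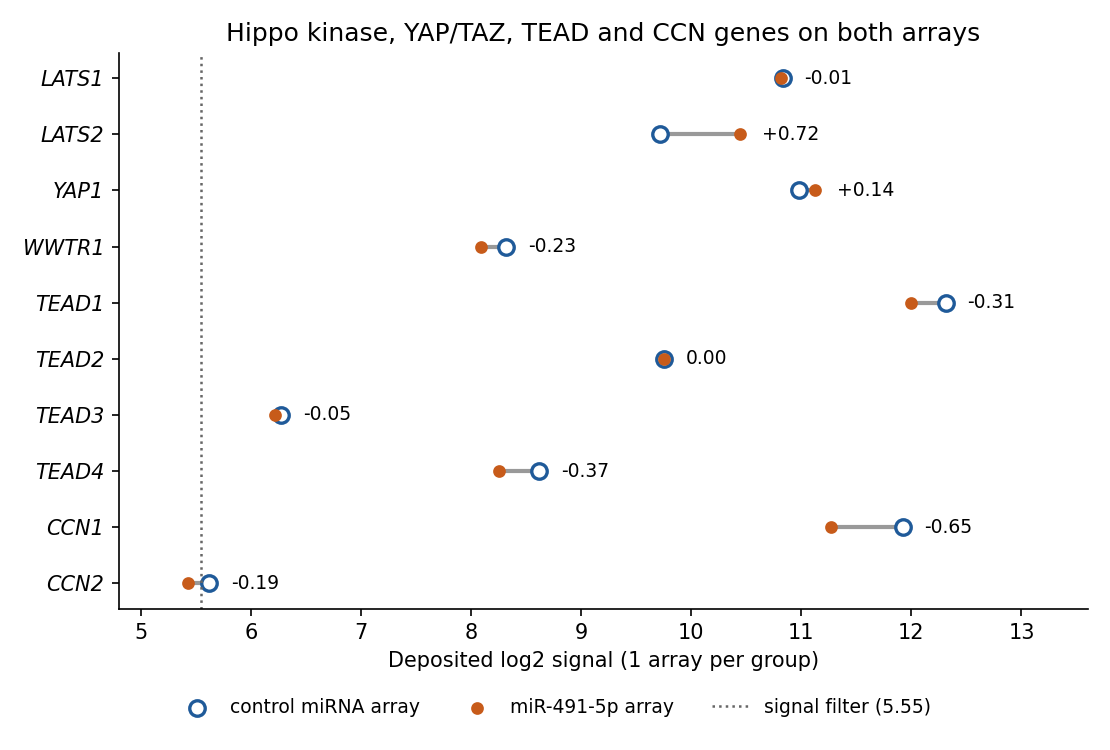
Deposited log2 signal (x axis) of the 10 members (y axis) on the control miRNA array (open circles) and the miR-491-5p array (filled circles), with the miR-491-5p minus control difference printed beside each pair and the filter of 5.55 dotted. LATS2 moves to the right from 9.72 to 10.44 and CCN1 to the left from 11.92 to 11.27, and CCN2 lies at the filter. Signals of different genes come from different probes, so only the 2 points of a row are comparable.

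Taken by sign, 7 of 10 members were below 0, 2 were above 0 and TEAD2 was at 0. Over all genes above the filter, 64.8% were below 0 and 33.5% above 0, so the members' signs were close to the background. The members' median was -0.12 against -0.07 for all genes. Without CCN2, the 9 members with both arrays at or above the filter had a median of -0.05. After median centring 5 of 10 were below 0, since LATS1 and TEAD3 changed sign and TEAD2 moved above 0.

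**Figure D2:**
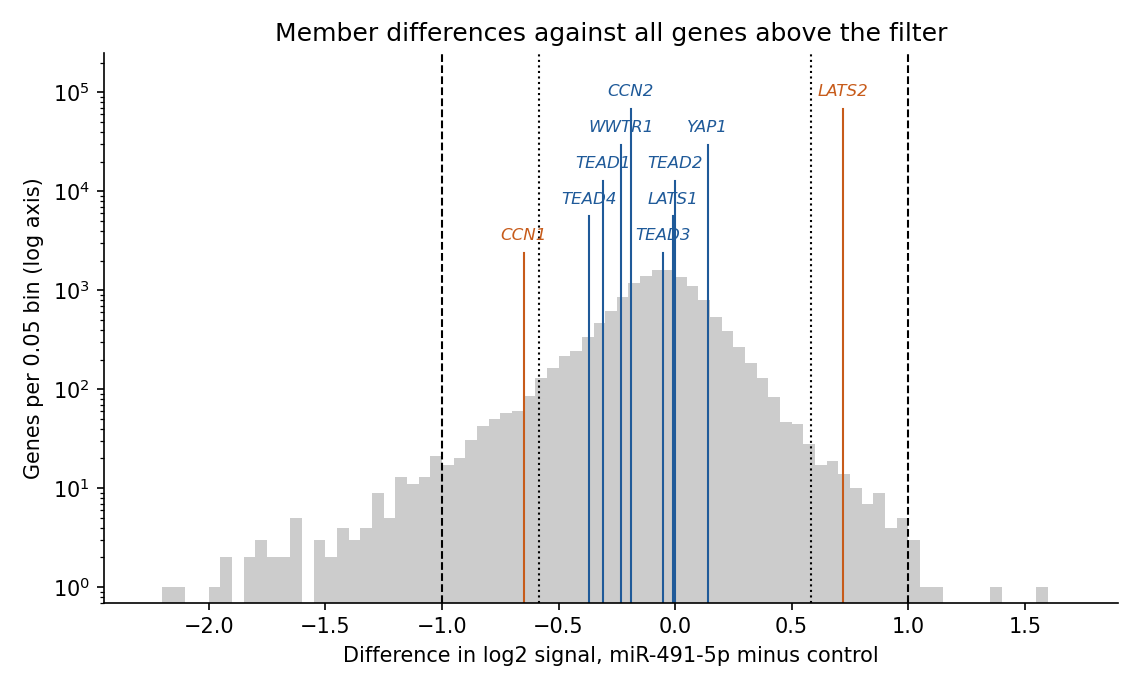
Number of genes above the filter (y axis, log scale) by their difference in log2 signal between the miR-491-5p and control arrays (x axis, bins of 0.05), with each of the 10 members drawn as a line at its own difference, its height being only for legibility. Dotted lines mark 1.5-fold and dashed lines 2-fold; LATS2 at 0.72 and CCN1 at -0.65 are the members outside the dotted lines, and the other 8 lie in the central mass.

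The rest of the pathway was described from 5 gene lists written from general knowledge, with earlier results of these data known. The kinase core list held MST kinases, their adaptors and the NDR kinases, which are the closest relatives of LATS. All 7 of its genes were above the filter, 4 above 0 and 3 below, and none reached 1.5-fold. Of all genes above the filter, 33.5% were above 0 and 64.8% below. At 1.5-fold, 3.62% of them were lower and 0.675% higher. MOB1B, a coactivator that LATS kinases bind, read 10.36 against 9.94 on the control array, and its paralog MOB1A read 12.80 against 12.54. Both MOB1 genes were thus higher, by 0.42 and 0.26. STK38, an NDR kinase, differed by 0.33, and SAV1, the scaffold of the MST kinases, by -0.26. The MST kinase genes STK4 and STK3, named here outside the naming rule, differed by -0.24 and -0.19. The list median was 0.12, against -0.07 for all genes, and with 7 genes it describes the list only.

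Upstream regulators held the only pathway gene past 2-fold. Of all genes above the filter, 0.758% were lower and 0.0487% higher by that much. NF2, which encodes merlin, a membrane-associated protein that recruits LATS for activation, read 10.53 on the miR-491-5p array and 11.71 on the control array. It was 2.27-fold lower and 53rd from the lowest of all genes above the filter. WWC1, which encodes KIBRA, a partner of merlin upstream of LATS, read 10.36 against 11.23 and was 1.83-fold lower. A second, dimmer WWC1 probe set gave the same direction, at 5.58 against 6.24. NF2 and WWC1 stayed past 2-fold and 1.5-fold after median centring, at -1.11 and -0.80.

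The other upstream genes differed less. Of 26 listed, 20 had a probe set of their own and 17 were above the filter, 13 of them below 0 and 4 above, where 64.8% of all genes were below 0. MAP4K1 passed through the control array alone, and of the 16 genes at or above the filter on both arrays 12 were below 0, with a median of -0.14. NF2 and WWC1 were the 2 lower by 1.5-fold or more, against 3.62% of all genes, and none was 1.5-fold higher, against 0.675%. STRN4, a striatin subunit of the STRIPAK phosphatase complex that restrains the MST kinases, differed by -0.47, and the MAP4K-family kinase MINK1 by -0.29. The remaining 13 ranged from -0.28 in the protocadherin FAT1 to 0.17 in the kinase TNIK. The list median of -0.10 was near the -0.07 of all genes.

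The list of proteins that bind YAP, TAZ or TEAD, which also held regulators of LATS such as AJUBA, showed small differences. Of 15 listed, 11 were above the filter, 8 below 0 and 3 above, and none reached 1.5-fold. These counts were near those of all genes, of which 64.8% were below 0, 3.62% lower by 1.5-fold or more and 0.675% higher by that much. AMOTL1, an angiomotin that holds YAP at junctions and in the cytoplasm, read 12.46 against 12.81 on the control array. PTPN14, a phosphatase that binds YAP, differed by -0.33, the LIM protein AJUBA, which inhibits LATS, by -0.22, and CSNK1D, a casein kinase that marks YAP for degradation, by 0.19. VGLL4, a TEAD-binding competitor of YAP named outside the naming rule, differed by 0.08, while VGLL1, VGLL2 and VGLL3 were below the filter on both arrays. The list median was -0.12, and -0.07 over the 14 genes with a probe set when no filter was applied.

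Other genes known to be induced by YAP were mostly lower, with 1 past 1.5-fold. That 1 was lower, and of all genes above the filter 3.62% were lower and 0.675% higher by 1.5-fold or more. The list was written from general knowledge of YAP signatures, with earlier results of these data known. It leaves out the members CCN1, CCN2 and LATS2, and shares AMOTL2 and PTPN14 with the list of binding proteins. Of 19 genes, 16 were above the filter, 14 below 0 and 2 above, with a median of -0.32 (-0.25 after median centring) against -0.07 for all genes. Since 64.8% of all genes were also below 0, the same count against the all-gene median was 12 below and 4 above. ANKRD1 (5.12 against 5.65) and FOXF2 passed the filter through the control array alone, and a gene that passes that way can only be lower. The 14 genes at or above the filter on both arrays had a median of -0.24. Of these, 12 were below 0 and 2 above, or 10 below and 4 above the all-gene median. With no filter, the median over all 19 genes was -0.18. These counts describe the list and were not tested, since each group had 1 array.

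Single targets differed in both directions. GADD45A, a growth arrest gene that p53 also induces, read 10.45 on the miR-491-5p array and 11.17 on the control array, 1.65-fold lower. NUAK2, a kinase that feeds back on LATS, read 11.89 against 12.44 and differed by -0.55. CRIM1, a membrane protein that binds BMP ligands, read 11.14 against 11.65 and differed by -0.51. IGFBP3, an IGF-binding protein named outside the naming rule, went the other way at 7.68 against 7.25, and MYOF, a ferlin membrane protein also outside it, was level at 15.15 against 15.17. LATS2, itself a YAP-induced gene, was on the opposite side from CCN1, GADD45A, NUAK2 and CRIM1.

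The other CCN genes added little. CCN3, a relative of CCN1 and CCN2, read 11.19 against 11.43 on the control array and differed by -0.24. CCN5 read 5.43 against 5.59 and passed the filter through the control array alone. CCN4 and CCN6 were below the filter on both arrays.

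**Figure D3:**
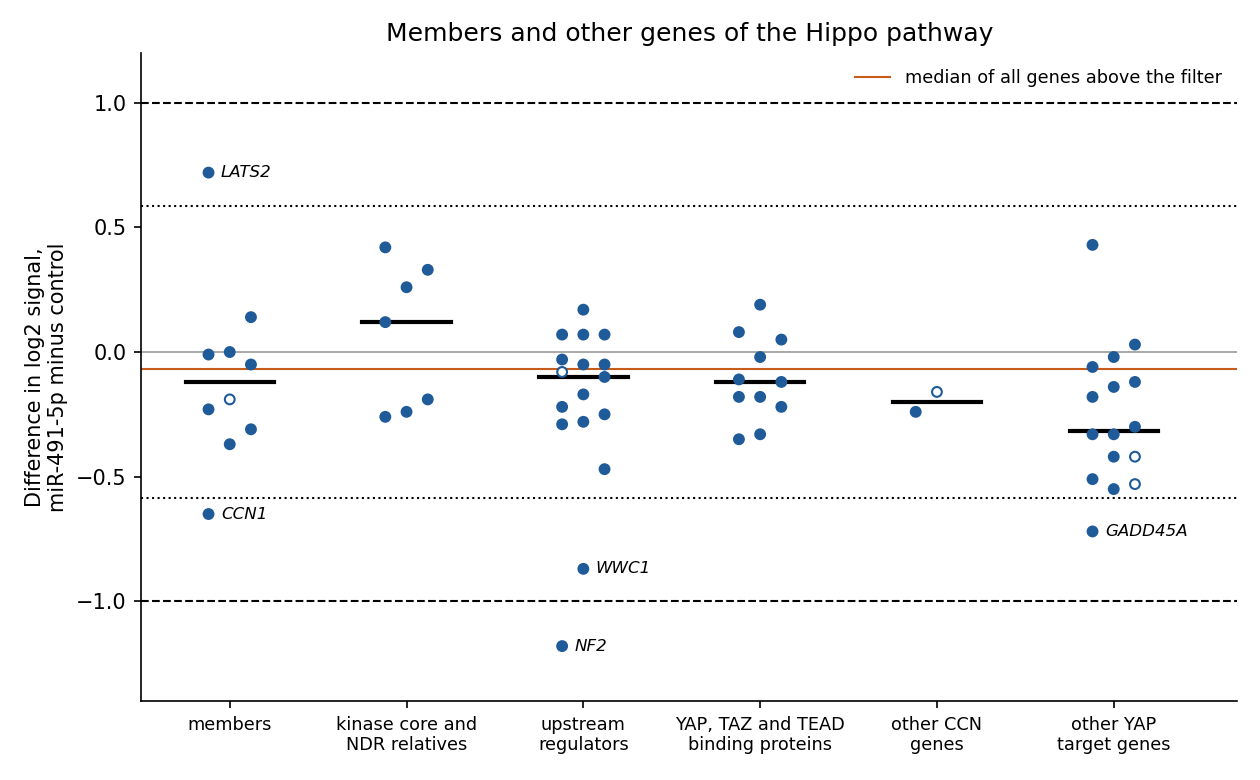
Difference in log2 signal (y axis, miR-491-5p minus control) of each gene above the filter, for the 10 members and the 5 pathway lists (x axis). Filled points had both arrays at or above the filter and open points 1 array; black bars are list medians, the orange line is the all-gene median of -0.07, and dotted and dashed lines mark 1.5-fold and 2-fold. NF2 at -1.18 is the only point past 2-fold, and LATS2 at 0.72 the only one above the upper dotted line.

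Promoter sequence was examined for TEAD, AP-1 and CArG box motifs. TEAD binds the promoters of some YAP targets, and AP-1 and SRF act at many of the same genes. RefSeq windows (GRCh38.p14) of 300 bases, 250 before to 50 after each annotated start, were searched on both strands. Sites outside these windows were not searched, so a window without a match does not show a gene without one. The TEAD motif was GGAATG and the AP-1 motif TGANTCA, with N any base, so the AP-1 matches are loosely defined. Windows were given for 7 of the 10 members (10 windows, since some genes have 2 starts), and CCN1, TEAD1 and TEAD4 are named only. The TEAD motif was in 3 of these 10 windows, against 14.0% of 35116 windows of all genes. They were CCN2 with 3 matches, and YAP1 and LATS2 with 1 each. At least 3 matches, as in CCN2, occurred in 0.128% of all windows. In LATS2 the match lay just after the start, at bases 10 to 15. Among the other YAP targets, 7 of 16 windows held the motif.

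The AP-1 motif was in 1 member window, that of a LATS1 start, against 7.71% of all windows. The CArG box was in 0 of the 10, against 1.29%. A match is a description of letters and not of binding.

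The CCN2 and YAP1 sequences before the start are printed because they hold the member matches that lie there, with the TEAD motif in capitals. The CCN2 stretch covers all 250 bases before the start (chr6:131951373-131951622, - strand), with matches at bases -169 to -164, -104 to -99 and -95 to -90 from the start. The YAP1 stretch covers bases -202 to -117 (chr11:102110245-102110330, + strand), with its match at -162 to -157.

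CCN2: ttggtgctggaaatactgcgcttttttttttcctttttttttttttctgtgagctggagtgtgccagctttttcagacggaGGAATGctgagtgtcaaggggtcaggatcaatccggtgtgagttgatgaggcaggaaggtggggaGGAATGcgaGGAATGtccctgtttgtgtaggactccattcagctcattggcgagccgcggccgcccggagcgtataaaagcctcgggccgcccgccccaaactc

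YAP1: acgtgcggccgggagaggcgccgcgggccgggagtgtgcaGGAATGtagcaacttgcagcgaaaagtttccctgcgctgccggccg

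Of these 3 genes with the motif, LATS2 differed by 0.72, YAP1 by 0.14 and CCN2 by -0.19 with a signal at the filter. CCN2 passed the filter through the control array alone, so its sign is not read here. LATS2 and YAP1 were higher, but the YAP1 difference was inside the -0.68 to 0.37 range of the middle 95% of genes. The other YAP targets with the motif and both arrays at or above the filter were lower. They were NUAK2 (-0.55), PTPN14 (-0.33), AMOTL2 (-0.18) and TGFB2 (-0.06, or 0.01 after median centring). Genes with the motif thus lay on both sides, and a link between motif and difference was not tested.

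**Figure D4:**
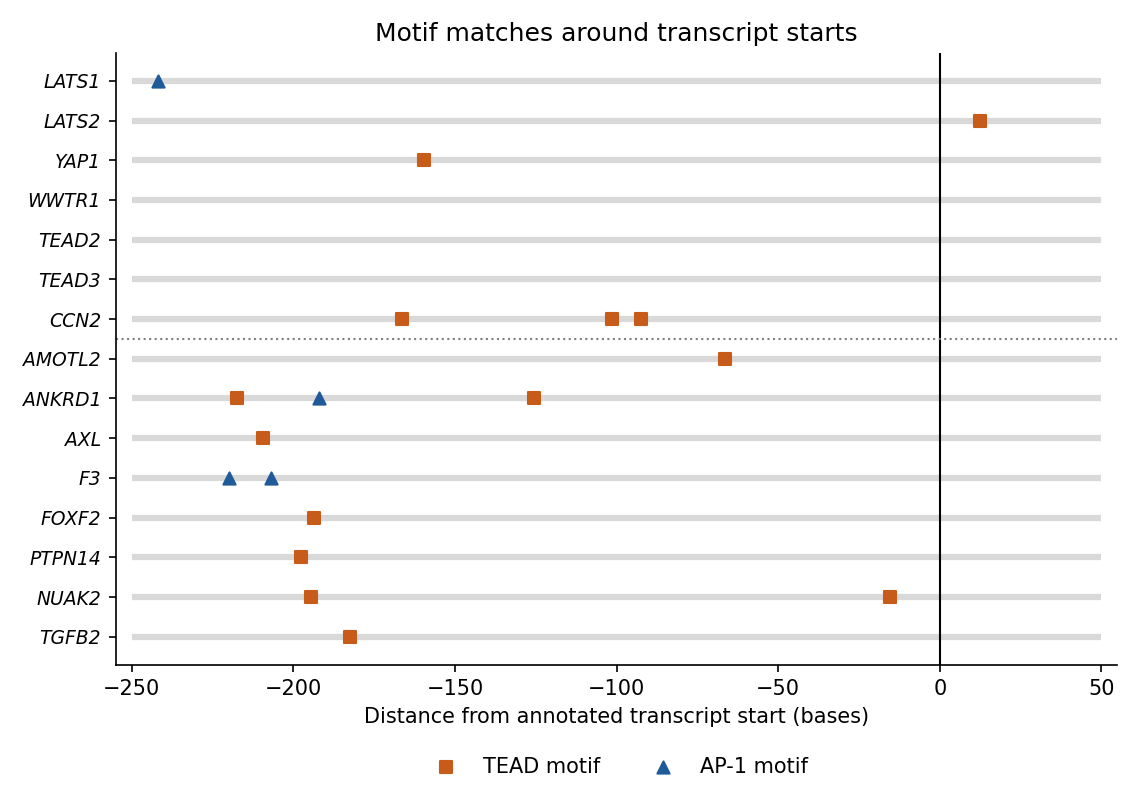
Position of TEAD motif matches (squares) and AP-1 motif matches (triangles) relative to the annotated transcript start (x axis, bases; 0 is the start) in the searched windows of 7 members, above the dotted line, and of the other YAP targets with a match, below it; a gene with 2 starts has both windows on 1 row. CCN2 carries 3 TEAD matches before its start, and the LATS2 match lies after the start.

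The identity of the cells was checked with marker genes. All 7 epithelial and Müllerian markers were above the filter on both arrays, and their differences went both ways, from -0.60 in the keratin KRT18 to 0.50 in the cadherin CDH1. The keratins KRT19 and KRT8 differed by -0.53 and -0.44, PAX8, a transcription factor of Müllerian epithelium, by -0.18, WT1 by 0.04 and EPCAM by 0.36. Of markers of other cell types, 2 of 8 fibroblast, 2 of 7 endothelial and 2 of 6 leukocyte genes with a probe set were above it. These were COL1A1 and THY1, CDH5 and CLDN5, and CD3E and CD68, the last a lysosomal protein at 10.54 and 10.76. PDGFRB, PECAM1 and PTPRC were among those below it on both arrays. The endothelial cadherin CDH5 was high on both arrays, at 11.10 against 13.23 on the control array. Its difference of -2.13 ranked 2nd from the lowest of all genes above the filter. The part of the epithelial and other markers in the differences of LATS2 and CCN1 was not tested.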

How the data were processed

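Total RNA of 2 cultures of IGROV1-R10 was profiled, 1 array per group, grouped by the transfection label. The authors deposited a log2 signal for each transcript cluster (probe set), and per the submitters' processing notes RMA was the tool. Software version, background correction and build are not stated in the labels, the log base is inferred from RMA, and the number of arrays limits the precision. The top value of 19.22 is above the usual scanner range, so differences may be stretched. Of 67528 probe sets, 23781 named 1 gene in GEO's platform annotation, and these gave 22465 genes, each taking its probe set with the highest mean. No test was run between the groups. Named were all members and, per pathway list, up to 4 genes above the filter with the largest absolute differences. The members and lists were chosen with earlier results of these data known. Alternatives were median centring, loess on signal (span 0.3), other filters, mean probe sets and a 25% threshold. The procedure was tested on simulated data at the 2-fold threshold only, with planted differences larger than that of any member. The 1.5-fold counts were not tested that way. The planned protein motif search was not run, since protein sequences were not used here. Python 3.11.15, numpy 2.4.6, pandas 2.3.3 and statsmodels 0.14.6 were used.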

Additional observations from a re-analysis of the deposited data

How the results depend on the processing

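No paired analysis was possible because there was 1 array on each side, and no replicate could be left out. Median centring and the loess correction each left 1 member past 1.5-fold in place of 2, since CCN1 dropped to -0.58 and -0.57 and LATS2 stayed past it at 0.79 and 0.80. With the threshold lowered to a 25% difference, 3 members passed in place of 0 at 2-fold. Many genes lay that far out, since 12.6% of those above the filter were at -0.33 or lower and 3.37% at 0.33 or higher. Over all genes, centring gave 13 higher at 2-fold and 148 at 1.5-fold, and loess 13 and 147, against 7 and 97 as deposited. The members' median ran from -0.12 to -0.04 over these settings. Without a filter or with mean probe sets, the counts of members past 1.5-fold and 2-fold did not differ from those given. With both arrays at or above the filter CCN2 dropped out. The median of the other YAP targets was -0.18 without a filter against -0.32 with it, and that of the binding proteins -0.07 against -0.12. Named genes shifted by 0.07 when centred, by 0.06 to 0.10 with loess, and by at most 0.11 when probe sets were averaged. The steps before RMA's output were not varied, and how far each signal lay above background is not known.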

Other observations

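Several pathway genes had no probe set of their own and stayed out of the lists. A probe set shared by SCRIB, a polarity scaffold that acts upstream of Hippo signalling, and MIR937 read 7.38 on the miR-491-5p array and 7.98 on the control array. The one shared by WWC2, a paralog of WWC1, and CLDN22 read 11.54 and 11.71. The one shared by MOB4, a STRIPAK subunit, and the readthrough gene HSPE1-MOB4 read 11.60 and 11.71, and that of AMOT and MIR4329 read 5.04 and 5.14, below the filter. All 4 read lower after miR-491-5p, where 64.8% of genes above the filter were below 0, and which gene of each pair gave the signal cannot be told apart.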
